A study of Mus musculus with 16 samples.

Results

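miR-210-3p (hsa-miR-210-3p) was measured in RNA released into the culture medium by HCT116 cells after X-rays. HCT116 is an established human colorectal carcinoma line. miR-210-3p was taken as every probe on the array that carries exactly that name. It is 1 of 1205 human miRNAs on the array and 1 of the 283 that were bright enough to be tested. Cells received 0, 2, 6 or 10 Gy of X-rays, delivered fast (at a high dose rate). They then grew for 72 h in RPMI1640, with fetal bovine serum at 10%. The unirradiated 0 Gy cultures were the controls and shared the line, the medium, the serum and the time. Each dose had 4 cultures and 1 array per culture, 16 arrays in all. The series' design text calls the cultures of a dose independent and lists 0, 6 and 10 Gy. For 2 Gy the group comes from each array's label. Mouse is named as the organism in the labels, although HCT116 is human and the probes carry human miRNA names. The cultures came from 1 line, so they do not sample other tumours. The serum in the medium can carry miRNAs of its own, and no array of medium without cells was analysed here.

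miR-210-3p is the miRNA best known for its induction by low oxygen, through the transcription factor HIF-1. In hypoxic cells it lowers ISCU, an iron-sulphur cluster assembly protein of mitochondria, and other parts of the respiratory chain. It has also been reported to lower RAD52, a protein of homologous recombination, which repairs DNA double-strand breaks of the kind X-rays cause. miRNAs leave cells in vesicles and in protein complexes, so a level in the medium reflects release and stability as well as production.

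The sequence of miR-210-3p is shown because its seed, bases 2 to 8 from the 5′ end, sets which transcripts it pairs with. The 6 miRNAs whose levels followed it most closely are shown beside it, to compare their seeds. The reference table at hand is that of the mouse (RefSeq, GRCm38.p6), and all 7 names matched a mouse entry, so these are the mouse mature sequences, with the seed in capitals.
miR-210-3p: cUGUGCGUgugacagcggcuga
miR-324-3p: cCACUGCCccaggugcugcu
let-7b-5p: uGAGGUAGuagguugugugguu
let-7c-5p: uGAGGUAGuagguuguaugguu
miR-29a-3p: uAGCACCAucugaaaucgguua
miR-181a-5p: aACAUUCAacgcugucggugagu
miR-200c-3p: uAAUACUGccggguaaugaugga
In that table miR-210-3p was the single name with the seed UGUGCGU among 1679 mature names. The 6 others therefore have other seeds, and let-7b-5p and let-7c-5p share the let-7 seed with each other. The mature miR-210-3p has 22 bases, of which 63.6% are G or C. The share was 70.0% in miR-324-3p and between 40.9% and 47.8% in the other 5. The mouse sequence lies at chr7:141221407-141221428 on the minus strand, in the hairpin gene Mir210 at chr7:141221384-141221493. No other gene of the RefSeq table overlaps that hairpin, and the nearest gene on its left is Rassf7, 2726 bases away. In the human genome the miRNA is made from the transcript of the long non-coding RNA gene MIR210HG.

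The array carried 2 probes for miR-210-3p, called probe 1 (A_25_P00010995) and probe 2 (A_25_P00010996) here, with 20 spots each. The scanner software flagged between 0 and 4 of these 40 spots per array as outliers, and they were left out. Of the 621 spots kept over the 16 arrays, 609 (98.1%) were well above background. All 12 spots that were not came from the 6 Gy replicate 4 array, where 28 of 40 were above it. Both probes counted as detected on all 16 arrays, since more than 0.5 of their spots passed. No spot of any miRNA was saturated.

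Before scaling, the mean signal of probe 1 at 0 Gy was 211 in replicate 1, 505 in replicate 2, 65.3 in replicate 3 and 418 in replicate 4, in the scanner's intensity units. At 2 Gy it was 66.2, 390, 42.5 and 53.8 in replicates 1 to 4. At 6 Gy it was 53.9, 132, 37.3 and 23.3. At 10 Gy it was 130, 142, 143 and 57.6. The 3 brightest arrays of the 16 were thus 0 Gy replicates 2 and 4 and 2 Gy replicate 2. The local background beside these spots lay between 35 and 40 units on every array, as the median over the probe's spots. Probe 2 was dimmer, from 326 units on 0 Gy replicate 2 down to 21.9 on 6 Gy replicate 4. Spots of a probe on 1 array varied by a coefficient of variation between 5.11% and 13.7% on 15 arrays. On the dimmest array, 6 Gy replicate 4, it reached 25.6%. The cultures of a dose differed by more than that: at 0 Gy the brightest array carried 7.74 times the probe 1 signal of the dimmest.

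**Figure D1:**
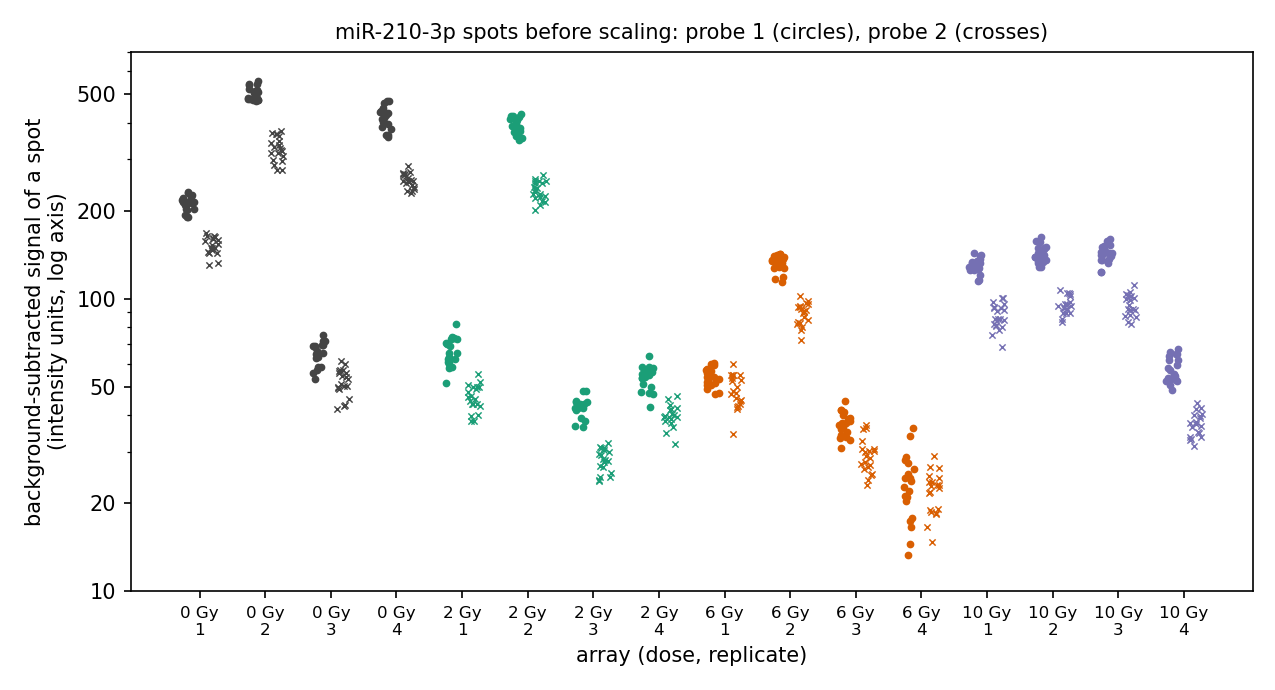
Each point is 1 spot of miR-210-3p, as background-subtracted signal in the scanner's intensity units on a log axis, for the 16 arrays by dose and replicate; circles are probe 1 and crosses probe 2. The spots of an array lie close together, probe 1 is brighter than probe 2, and 6 Gy replicate 4 is the dimmest array, with spots between 13.3 and 36.2 units.

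To compare arrays, the signals of each were scaled to its own 75th percentile, taken over the 518 probes that all 16 arrays detected. Signals under a floor of 0.0412 in these scaled units were raised to it, and log2 was taken. The level of miR-210-3p below is the mean of its 2 probes on this log2 scale. The floor is -4.60 on that scale. At 0 Gy the levels were -0.95, -0.53, -3.22 and -0.31 in replicates 1 to 4. At 2 Gy they were -3.17, -1.17, -3.44 and -3.37. At 6 Gy they were -3.72, -2.46, -3.40 and -4.60, the last of them at the floor. At 10 Gy they were -2.15, -1.84, -1.81 and -2.63. Replicates 1, 2 and 4 at 0 Gy were higher than all 12 irradiated arrays, while replicate 3 at 0 Gy lay among the irradiated ones, 11th of the 16. Replicate 2 stood above the other 3 arrays at both 2 and 6 Gy. The 10 Gy arrays were the most alike, and 3 of the 4 lay above every 6 Gy array.

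**Figure D2:**
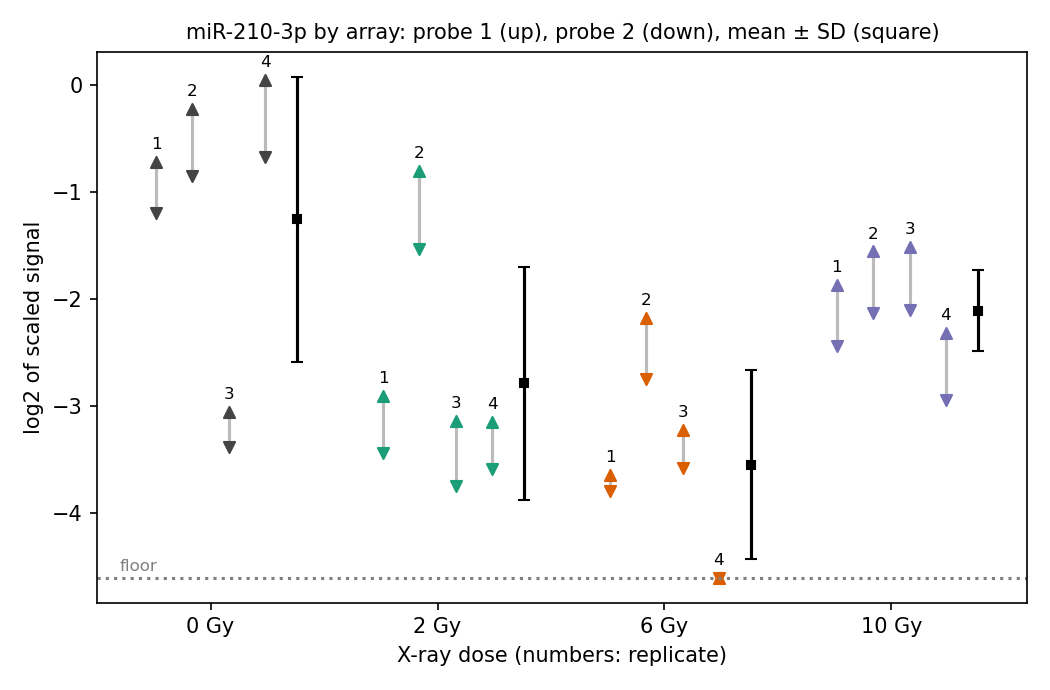
Level of miR-210-3p on each array as log2 of scaled signal, with probe 1 (triangle up) and probe 2 (triangle down) joined by a line, replicate numbers above, and the mean ± SD of the 4 arrays of a dose as a square with bars; the dotted line is the floor. The 0 Gy arrays spread from -3.22 to -0.31 as the mean of both probes, the 10 Gy arrays from -2.63 to -1.81.

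Over the 4 arrays of a dose (mean ± SD, n = 4), the level was -1.25 ± 1.33 without irradiation. It was -2.79 ± 1.09 after 2 Gy, -3.55 ± 0.88 after 6 Gy and -2.11 ± 0.38 after 10 Gy. From high to low the order of the doses was therefore 0, 10, 2 and 6 Gy, which is not the order of the dose. No neighbours in that order differed beyond their spread. The level at 10 Gy differed from that at 0 Gy by -0.85 ± 0.65 (SE), with a 95% interval from -2.24 to 0.53 and an adjusted p of 0.461. The level at 10 Gy differed from that at 2 Gy by 0.68 (interval -0.71 to 2.06, adjusted p = 0.579), and that at 6 Gy from that at 2 Gy by -0.76 (interval -2.14 to 0.62, adjusted p = 0.839). These intervals are wide, and they do not show that the doses were alike. Single arrays moved them: without 2 Gy replicate 2 the difference of 6 from 2 Gy was -0.22 and that of 10 from 2 Gy 1.22, and that of 10 from 0 Gy was -1.51 without 0 Gy replicate 3 and -0.54 without 0 Gy replicate 4. None of these passed. The arrays of miR-210-3p overlapped in each of the 6 pairs of doses. Lower at the first dose with no overlap were 4.24% of the 283 miRNAs for 2 against 0 Gy, 3.53% for 6 against 0 Gy and 5.3% for 10 against 0 Gy. The share was 1.06% for 6 against 2 Gy, 1.41% for 10 against 2 Gy and 2.47% for 10 against 6 Gy. Against 2 and 6 Gy miR-210-3p was higher at 10 Gy, a direction for which no such share is given here.

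Of the 6 pairs of doses, 1 passed the threshold of 0.05. Between 0 and 6 Gy miR-210-3p fell by 2.29 ± 0.65 (SE) on the log2 scale, or 4.90-fold, with an interval from -3.68 to -0.91 (limma, adjusted p = 0.0374). The 2 doses still overlapped, as 0 Gy replicate 3 (-3.22) lay below 6 Gy replicate 2 (-2.46). In this comparison 38 of the 283 miRNAs were called lower, 13.4%, and 55 were called in either direction, 19.4%. The split of 38 lower and 17 higher was 28 and 155 with arrays scaled over all human probes and 36 and 92 with quantile normalization, while miR-210-3p stayed lower, at -1.90 and -2.11. By size the fall of miR-210-3p was the 8th largest of the 283, and by p it ranked 24th. The median difference over all 283 was 0.12, and 0.52 and 0.22 under those other scalings. An exact two-sided permutation test of the 8 arrays, which looks at miR-210-3p alone, gave p = 0.0571 against a smallest possible p of 0.0286. The call was lost in 9 of the 16 fits that left out 1 array. With 0 Gy replicate 1, 2 or 4 left out the difference was -2.19, -2.05 and -1.98 (adjusted p = 0.107, 0.0903 and 0.0975). Without 6 Gy replicates 1, 3 and 4 it was -2.23, -2.34 and -1.94 (0.0676, 0.0530 and 0.0866). Leaving out 2 Gy replicate 1, 10 Gy replicate 1 or 10 Gy replicate 3 changes no mean here, yet moved the adjusted p to 0.0503, 0.0525 and 0.0514. Without 0 Gy replicate 3, the low control, the difference was -2.95 (adjusted p = 0.0020). The count over all miRNAs moved in the same fits. Dropping any of replicates 1, 2 and 4 of the controls, or replicates 1 and 4 of 6 Gy, left 0 miRNAs called (limma, 90 to 104 at an unadjusted p under 0.05). Without the third 6 Gy array, replicate 3, 19 were called. Dropping replicates 1, 3 or 4 of 2 Gy gave 11, 24 and 24, and dropping replicates 1 or 3 of 10 Gy gave 17 and 11. Without replicate 2 of 2 Gy or of 6 Gy the count rose to 73 and 78. Without replicate 2 or 4 of 10 Gy it was 39 and 52. With the low control dropped it rose to 143. The difference also shrank to -1.41 with normexp background correction (adjusted p = 0.0307), which was run with an offset of 50 units added to every signal. At 6 Gy the probe signals without it lay between 21.9 and 132 units. The effect of the offset alone was not tested. The 0 and 6 Gy arrays lay on different slides, each scanned by itself, so dose and slide cannot be told apart in this comparison or in any other of 6 or 10 Gy against 0 or 2 Gy. Each array took 100 ng of RNA and was scaled to its own 75th percentile. The level is therefore relative to the other RNA on the array and not an amount in the medium. Fewer cells and less RNA released per cell cannot be told apart in bulk medium either.

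Between 0 and 2 Gy, which shared a slide, the level differed by -1.53 ± 0.65 (SE), or 2.89-fold, and did not pass (adjusted p = 0.112, interval -2.92 to -0.15). On that slide 0 Gy took columns 1 and 2, and 2 Gy took columns 3 and 4, so dose and column cannot be told apart in this comparison. In that comparison 12.7% of the miRNAs were called, 36 of 283, and 6.71% were called lower (19). That split of 19 lower and 17 higher was 18 and 107 with scaling over all human probes and 16 and 54 with quantile normalization. Dropping either replicate 1 or replicate 4 of 2 Gy took the count of 36 to 0 (limma, 69 at an unadjusted p under 0.05 each time), and dropping its replicate 3 took it to 6. Among the controls, it became 3, 21 and 14 when replicates 1, 2 and 4 were dropped. It was 55 when replicate 4 of 6 Gy was dropped. For miR-210-3p, 3 of the 4 arrays at each of these doses lay apart, at -0.95 or higher at 0 Gy and at -3.17 or lower at 2 Gy, while 0 Gy replicate 3 was as low as the 2 Gy arrays and 2 Gy replicate 2 almost as high as the controls. With 1 array left out, 2 of the 16 fits passed. Without 0 Gy replicate 1, 2 or 4 the difference was -1.43, -1.29 and -1.22 (limma, adjusted p = 0.243, 0.244 and 0.257). Without 2 Gy replicate 1, 3 or 4 it was -1.40, -1.31 and -1.34 (0.224, 0.243 and 0.262). The 2 that passed left out the lowest control or the highest 2 Gy array, which widens the difference. Without 0 Gy replicate 3 the difference was -2.19 (adjusted p = 0.0074), without 2 Gy replicate 2 it was -2.07 (0.0305), and without both it was -2.73 (0.0004). These 3 fits called 121, 87 and 152 of the 283 miRNAs, or 42.8%, 30.7% and 53.7%, so many other miRNAs passed there too. At 10 Gy against 0 Gy, where 0.353% of miRNAs were called (1 of 283), leaving out those 2 arrays gave -1.51 (adjusted p = 0.0175) in a fit that called 70 miRNAs, 24.7%. Without 0 Gy replicate 3 alone it was also -1.51 but did not pass (adjusted p = 0.0731), with 43 miRNAs called. Earlier results of these data had marked these 2 arrays as standing apart, so their removal is a description and not an independent test. The slope over all 16 arrays was -0.07 ± 0.08 (SE) per Gy, with an adjusted p of 0.731. It ran from -0.10 to -0.033 with 1 array left out, nearest to 0 without 0 Gy replicate 4 (-0.033), replicate 2 (-0.038) and replicate 1 (-0.047), and was -0.0019 with array weights. In the fit of all 16 arrays 0 of the 283 miRNAs passed for the slope (limma, 36 at an unadjusted p under 0.05).

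**Figure D3:**
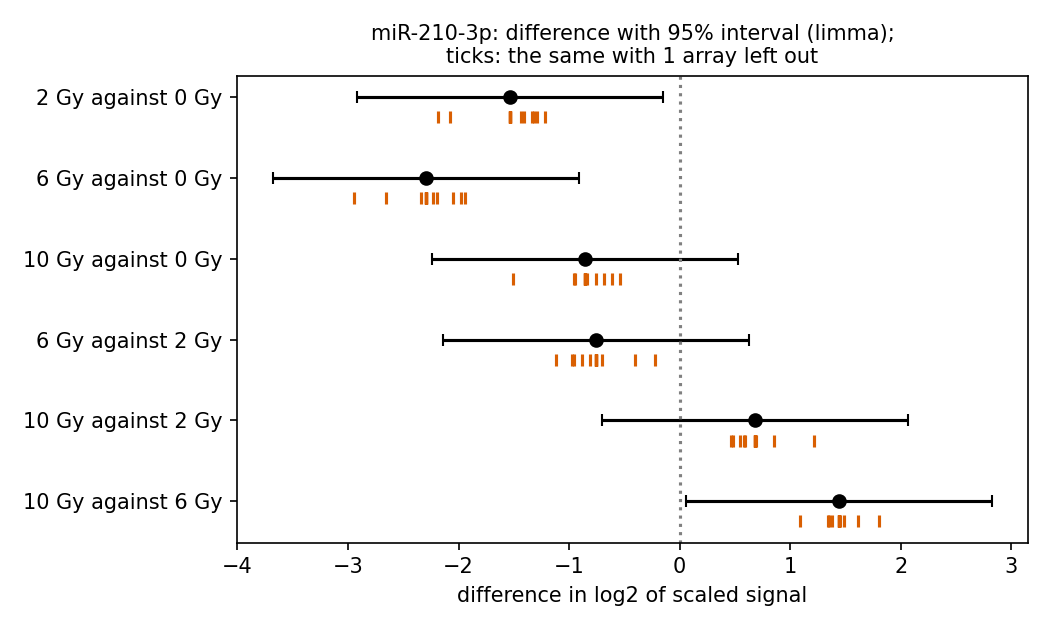
Difference in the level of miR-210-3p for the 6 pairs of doses, as log2 of scaled signal, with its 95% interval from limma (black) and the same difference with 1 array left out at a time (orange ticks, 16 per pair). The interval for 6 Gy against 0 Gy runs from -3.68 to -0.91, and that for 10 Gy against 6 Gy from 0.05 to 2.82.

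Between 10 and 6 Gy, which also shared a slide, the level was 1.44 ± 0.65 (SE) higher at 10 Gy, or 2.71-fold, and did not pass (adjusted p = 0.321). In that fit 0 of 283 miRNAs passed (limma, 42 at an unadjusted p under 0.05). On the slide 6 Gy took columns 1 and 2, and 10 Gy took columns 3 and 4, so dose and column cannot be told apart here either. Arrays of equal replicate number deviated together at these 2 doses, with correlations over the 283 miRNAs between 0.23 and 0.72 in the 4 pairs. For every other pair of doses equal numbers gave correlations of both signs, such as -0.76 to 0.75 for 2 against 0 Gy and -0.64 to 0.87 for 10 against 2 Gy. The level at 10 Gy exceeded that at 6 Gy in all 4 pairs, by 1.57, 0.62, 1.59 and 1.97 in replicates 1 to 4. In a fit of these 8 arrays with the replicate number as a block, chosen after the data were seen, the difference of 1.44 ± 0.23 (SE) passed with an adjusted p of 0.0319. That fit called 19.4% of the miRNAs, 55 of 283, a count that fell to 5, 21, 3 and 38 without pair 1, 2, 3 or 4. With 1 pair left out the adjusted p ran from 0.0147 to 0.0944, and 2 of these 4 fits passed. An exact sign-flip permutation test of the 4 pairs gave p = 0.125, the smallest that 4 pairs allow. The labels do not say that a number marks a shared batch. Arrays of equal number also shared a slide row, replicates 1 and 2 in row 1 and replicates 3 and 4 in row 2. What made them alike was not tested.

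Both probes gave the same picture. Their levels correlated at r = 0.99 over the 16 arrays, which share the RNA and the array and so are not independent readings. Probe 1 was higher on 15 arrays, by 0.15 to 0.74, and both sat at the floor on 6 Gy replicate 4. At 6 Gy against 0 Gy the difference was -2.43 with probe 1 (adjusted p = 0.0401) and -2.16 with probe 2 (0.0351). Agilent's own total signal per miRNA, without scaling, averaged 189 ± 121 units in the controls, 85.0 ± 100.0 after 2 Gy, 42.0 ± 30.1 after 6 Gy and 74.8 ± 26.1 after 10 Gy (SD, n = 4). By these means 2 Gy lay above 10 Gy, unlike in the scaled level. As means of log2 values the totals were 7.23, 6.13, 5.80 and 5.13 at 0, 10, 2 and 6 Gy, the order of the scaled level. On 2 Gy replicate 2 the total was 235 units, against 26.8 to 42.8 on the other 3 arrays of that dose. On that log2 scale the total differed by -2.10 between 6 and 0 Gy (exact two-sided permutation p = 0.0571, adjusted 0.300 over 6 pairs).

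The level of miR-210-3p moved with Agilent's labelling spike-in, synthetic RNA that is added when the sample is labelled and that reports how well labelling worked. The spike-in signal, log2 of the scanner software's value, was 10.10, 8.30, -2.32 and 9.31 in the 0 Gy replicates 1 to 4, and 1.02, 6.97, 6.40 and 4.88 at 2 Gy. It was 1.67, 5.50, 5.95 and -2.32 at 6 Gy, and 6.85, 9.02, 7.58 and 6.06 at 10 Gy. The value -2.32 is what the software enters when both spike-ins are undetected, and it belongs to 0 Gy replicate 3 and 6 Gy replicate 4, the lowest miR-210-3p arrays of their doses. On 2 Gy replicate 1 and 6 Gy replicate 1, 1 of the 2 spike-ins was undetected. The software rated the labelling signal as in range only on 0 Gy replicates 1 and 4 and on 10 Gy replicate 2. Every 2 Gy and 6 Gy array was therefore outside that range. Across all 16 arrays the 2 measures had a Pearson r of 0.79 (permutation p = 0.00025, adjusted 0.00075 over 6 coefficients) and Spearman's rho 0.83 (p = 0.0002, adjusted 0.00075). Within slide 1 r was 0.74 (exact permutation p = 0.0317, n = 8) and within slide 2 it was 0.93 (exact permutation p = 0.000521, n = 8), with rho of 0.71 (p = 0.0576) and 0.90 (p = 0.00456). With each dose centred on its mean, r was 0.81 (permutation p = 0.0001), and without that centring it was 0.78 over 14 arrays, those left when the 2 with the spike-in farthest from its median were taken out. The unscaled total of miR-210-3p gave r = 0.65 and rho = 0.73 with the spike-in (adjusted permutation p = 0.00995 and 0.00344). The scaling factor itself gave r = -0.48 (adjusted permutation p = 0.0730).

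The spike-in averaged 6.35 ± 5.83 in the controls, 4.82 ± 2.68 after 2 Gy, 2.70 ± 3.86 after 6 Gy and 7.38 ± 1.26 after 10 Gy (SD, n = 4), so it too was lowest at 6 Gy. Its difference between 10 and 6 Gy was 4.68 (exact two-sided permutation p = 0.0286, the smallest possible, adjusted 0.171 over 6 pairs), and that between 6 and 0 Gy was -3.65 (exact permutation p = 0.343). With the spike-in as a covariate, the difference in miR-210-3p was -1.52 at 6 Gy (adjusted p = 0.0480) and -1.21 at 2 Gy (0.0376) against 0 Gy, while that between 10 and 6 Gy was 0.45 (0.841). That fit called 10.2% of the miRNAs at 6 Gy (29 of 283) and 26.1% at 2 Gy (74). The covariate thus shortened the 6 Gy difference by a factor of 1.50, that of 10 against 6 Gy by 3.17, that of 6 against 2 Gy by 2.42 and that of 10 against 2 Gy by 4.87. The difference of 10 Gy from 0 Gy instead grew from -0.85 to -1.07, and the slope from -0.073 to -0.091. The 2 Gy difference was smaller with the covariate than the -1.53 without it, and passed.

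**Figure D4:**
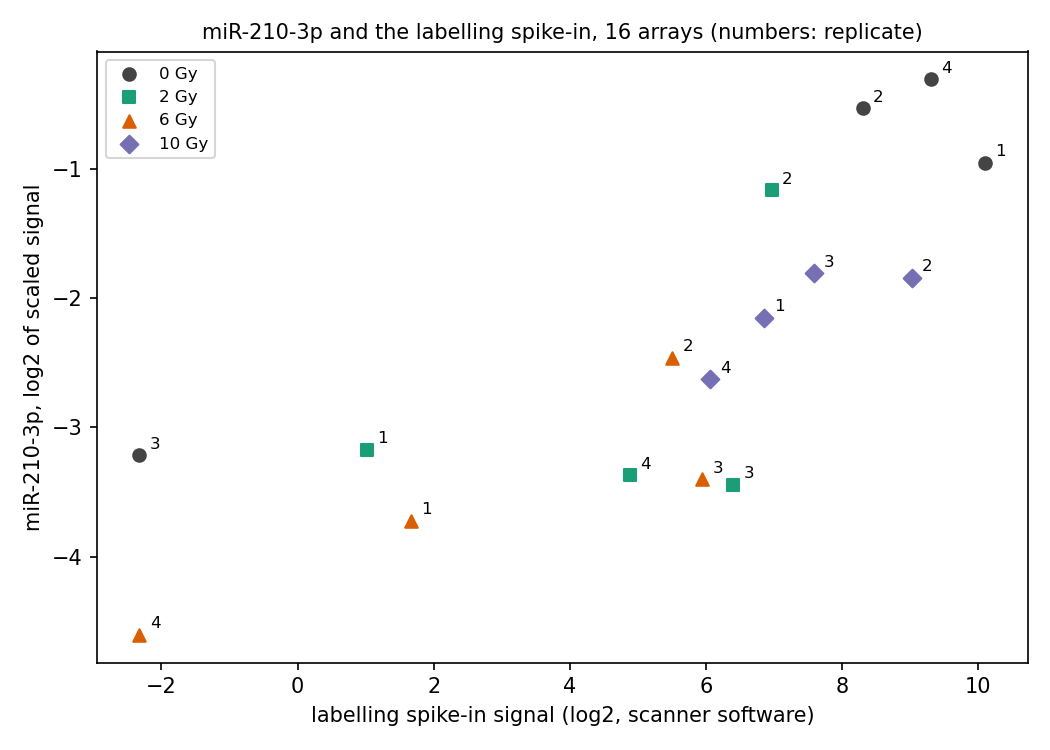
Level of miR-210-3p (log2 of scaled signal, vertical axis) against the labelling spike-in signal (log2, horizontal axis) on the 16 arrays, marked by dose and replicate number. Pearson's r was 0.79, and the arrays with both spike-ins undetected, 0 Gy replicate 3 and 6 Gy replicate 4, sit at the left edge.

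Other miRNAs rose and fell with miR-210-3p from array to array. Of the 282 other tested miRNAs, 26 had a Pearson r above 0.9 with it over the 16 arrays and 162 had an r below 0. All of them share the scaling, the RNA and the labelling of an array. The closest was miR-324-3p (r = 0.98), followed by let-7b-5p (0.98) and let-7c-5p (0.98), members of the let-7 family that holds back proliferation, and miR-29a-3p (0.97), a regulator of collagen transcripts. Next came miR-181a-5p (0.96) and miR-200c-3p (0.96), the latter a regulator of epithelial identity. The r of deviations from the dose means was 0.99 for miR-324-3p and 0.96 to 0.98 for the other 5, so the likeness was as high among arrays of 1 dose as across doses. At 6 Gy against 0 Gy their own differences were -1.21 for miR-324-3p, -2.24 for let-7b-5p, -2.24 for let-7c-5p, -3.20 for miR-29a-3p, -1.32 for miR-181a-5p and -2.50 for miR-200c-3p. Of these 6, the first 4 passed (adjusted p = 0.043 for miR-324-3p and 0.0407 for the other 3) and the last 2 did not (0.0594 and 0.0514). On 6 Gy replicate 4, let-7c-5p, miR-29a-3p, miR-181a-5p and miR-200c-3p were at the floor, as miR-210-3p was. On 6 Gy replicate 1 miR-200c-3p was at the floor as well. The r and the 6 Gy differences of these miRNAs therefore depend on the floor. miR-324-3p and let-7b-5p were at the floor on 0 arrays. At the far end, miR-3195 had an r of -0.94 with miR-210-3p.

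**Figure D5:**
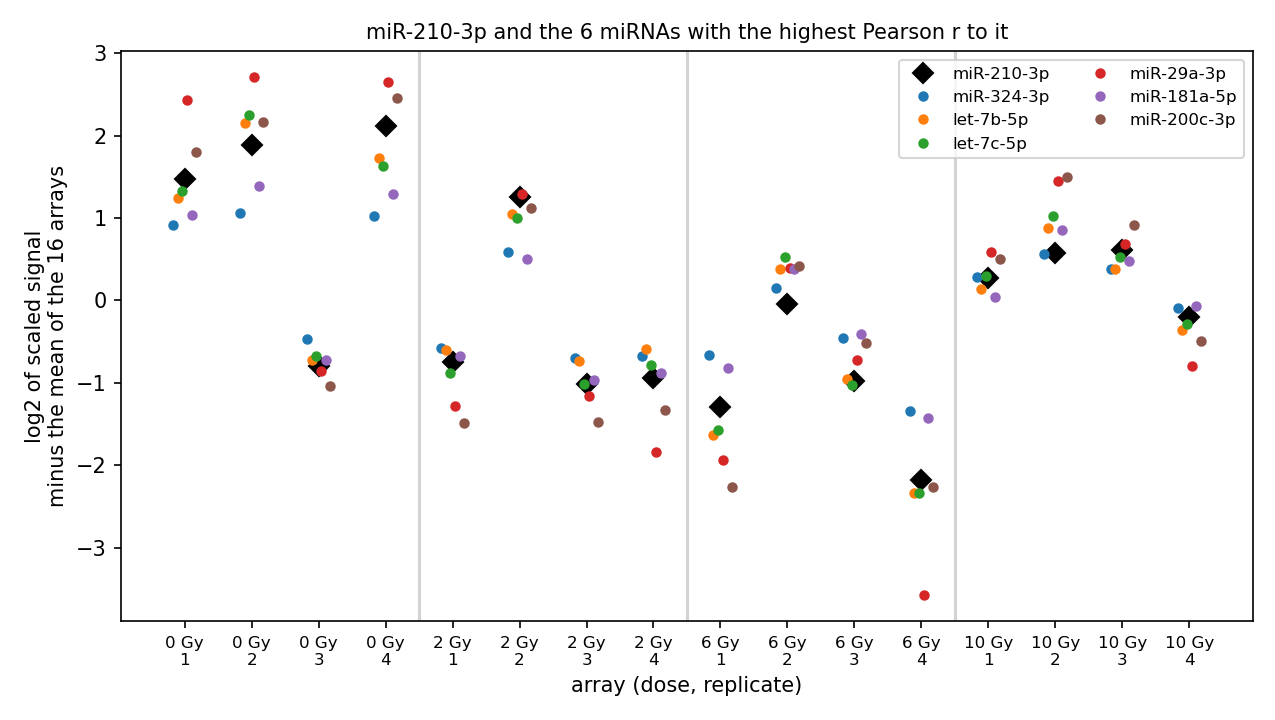
Levels of miR-210-3p (black diamonds) and of the 6 miRNAs with the highest Pearson r to it (circles) on the 16 arrays, each as log2 of scaled signal minus its own mean over the 16 arrays. All 7 are high on 0 Gy replicates 1, 2 and 4 and on 2 Gy replicate 2, and low on 6 Gy replicate 4. On that last array miR-210-3p, let-7c-5p, miR-29a-3p, miR-181a-5p and miR-200c-3p are at the floor.

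miR-210-3p is the central member of the miRNAs that low oxygen has been reported to change. Of 22 others in that list, all on the array, 10 were bright enough to be tested. Against 0 Gy, 3 fell at 2 Gy, 5 fell and 1 rose at 6 Gy, and 0 passed at 10 Gy (by limma, with 4 under an unadjusted p of 0.05), where 0.353% of all miRNAs did. Of all 283 miRNAs, 6.71% fell at 2 Gy, and at 6 Gy 13.4% fell and 19.4% changed in either direction. The median difference of the 10 was -1.53, -1.56 and -0.75 at 2, 6 and 10 Gy, against 0.03, 0.12 and -0.02 over all 283. At 6 Gy the oncogenic miR-21-5p fell by 2.72 (adjusted p = 0.0304). miR-125b-5p, which restrains p53, also fell (-3.41, adjusted p = 0.0407). Of the miR-23, miR-27 and miR-24 clusters, miR-27a-3p fell by 2.12 and miR-27b-3p by 1.26 (adjusted p = 0.0407 each), while the differences of miR-24-3p (-2.66, adjusted p = 0.0921) and miR-23a-3p (-1.52, 0.0671) missed the threshold. miR-181b-5p fell by 0.86 (adjusted p = 0.0350), and miR-155-5p, a miRNA of lymphocytes, rose by 0.31 (0.0407). The differences of miR-93-5p (-1.59, adjusted p = 0.0749) and miR-181a-5p (-1.32, 0.0594) did not pass. At 2 Gy the members that fell were miR-125b-5p (-3.53), miR-21-5p (-2.79) and miR-181b-5p (-0.83). A miRNA could enter the test through 1 dose where it was bright. miR-27b-3p was detected on 9 arrays, miR-24-3p on 10, miR-21-5p on 11 and miR-125b-5p on 12, and their levels were at the floor on 8, 6, 5 and 5. Their differences, and the medians of the list, therefore depend on the filter and the floor. miR-181b-5p and miR-155-5p were detected on all 16. The list and the members were chosen with results of these data known, so these counts are a description.

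Of 14 other miRNAs known to lower DNA repair proteins, 4 were tested. miR-100-5p, a regulator of the damage kinase ATM, fell by 2.82 at 2 Gy and by 2.43 at 6 Gy (adjusted p = 0.0333 and 0.0450). It was detected on 12 arrays and at the floor on 4, so the size of its fall depends on the floor too. miR-24-3p, a regulator of the histone H2AX, did not pass. The other 2, miR-21-5p and miR-155-5p, are also in the hypoxia list: miR-21-5p fell at both doses and miR-155-5p rose at 6 Gy, with the values given there. At 10 Gy 0 of the 4 passed (limma, 2 at an unadjusted p under 0.05). miR-373-3p, which like miR-210-3p has been reported to lower RAD52, was not detected on any array.

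Markers of cell types were read beside these results. Of 6 epithelial miRNAs, miR-200c-3p and miR-141-3p were each detected on 15 arrays, miR-200b-3p on 8 and miR-429 on 6, while miR-192-5p and miR-194-5p were detected on 0. At 6 Gy against 0 Gy miR-200c-3p and miR-141-3p differed by -2.50 and -2.07, close to miR-210-3p, without passing (adjusted p = 0.0514 and 0.0570). Their levels were at the floor on 2 and 1 of the 16 arrays. Of the 4 red blood cell miRNAs, miR-486-5p was detected on 16 arrays (0.21 at 6 Gy, adjusted p = 0.142) and the defining miR-451a on 0. Of the 5 white blood cell and platelet miRNAs, miR-155-5p was detected on 16 and the other 4 on 0. The liver miRNA miR-122-5p was detected on 4 arrays and not tested. The muscle miRNAs miR-133a-3p and miR-206 were detected on 16 arrays and miR-133b on 13, with 0 of the 3 called at 6 Gy (by limma, with 1 under an unadjusted p of 0.05), and miR-1-3p on 0.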

How the data were processed

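RNA from the medium of 16 HCT116 cultures, 100 ng each, was extracted with ISOGEN, labelled with Cy3 and hybridised to single-colour Agilent miRNA arrays, per the labels' protocols. The deposited values are an intensity per spot, background-subtracted by Feature Extraction 11.5.1.1 and not scaled across arrays, per the file headers. The number of arrays limits the precision. Slide 1 held 0 and 2 Gy, slide 2 held 6 and 10 Gy. On each slide the lower dose took columns 1 and 2 and the higher dose columns 3 and 4, per the file headers.

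Of 56044 spots, 2164 controls and the outlier-flagged spots (3.33 to 4.94% of an array's other spots) were left out, and the spots of a probe were averaged. A probe was detected where a share above 0.5 of its spots stood well above background. Arrays were scaled to the 75th percentile over 518 probes detected on all arrays, floored at the median 5th percentile of detected probes and put on a log2 scale. A miRNA was tested if all 4 arrays of some dose detected 1 of its probes (592 human probes, 283 miRNAs, 4.17% of values at the floor). Levels compare arrays for 1 miRNA, not miRNAs with each other.

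limma 3.58.1 in R 4.3.3 fitted a mean per dose over all 16 arrays, with Benjamini-Hochberg adjustment over the 283 miRNAs and a threshold of 0.05. The fit was run on simulated data with independent noise for each miRNA. In the measured arrays many miRNAs move together, so that run does not give the rate of false calls here. Permutation tests of single values were exact for 8 arrays and used 100000 resamples for 16. Sequences came from RefSeq. Text names miR-210-3p, the 6 miRNAs of highest r to it, and, of the hypoxia and DNA repair lists, the members called against 0 Gy and up to 4 others by size at 6 Gy. miR-3195 was named after its value was seen. miR-210-3p, the lists and the tests were chosen with earlier results of these data known.

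Replicate numbers were looked at for pairing through the correlation of deviations from the dose means over the 283 miRNAs. Every pair was above 0.1 for 10 and 6 Gy (0.23 to 0.72) and at least 1 was below it for each other pair of doses. The numbers were therefore taken as pairs for 10 against 6 Gy, from the data and not the labels. Correlations of unequal numbers are not given for comparison, so these values do not establish a pairing. Arrays of equal number also shared a slide row. No 2 arrays held identical values. Alternatives are given in the closing section. Python 3.11.15 and matplotlib 3.10.9 drew the figures.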

Additional observations from a re-analysis of the deposited data

Results flagged for a closer look

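The 2 Gy replicate 2 array stood apart from the other 3 of its dose, at a level of -1.17 against -3.44 to -3.17, and so did each probe there (-0.80 for probe 1 and -1.53 for probe 2). At 10 Gy the unscaled total signal of replicate 4 was low on the log2 scale (5.17, against 6.38 to 6.50), and its scaled level of -2.63 was the lowest of its dose without standing apart. The gap between the probes on that array was 0.63, against 0.58 to 0.59 on the other 3. Chance marks about 5% of groups in this way, and 20 groups were looked at, 5 related measures at each of 4 doses.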

How the results depend on the processing

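The 6 Gy fall of miR-210-3p kept its direction in all 33 alternatives run and its call in 21. It was not called with the arrays of the 2 doses alone (-2.29, adjusted p = 0.144), without scaling (-2.10, adjusted p = 0.136, where 0 miRNAs were called by limma against 62 at an unadjusted p under 0.05) or by the exact permutation test (-2.29, p = 0.0571). It ran from -2.95 to -1.94 with 1 array left out and was smallest with normexp and its offset of 50 units, at -1.41 (adjusted p = 0.0307). Over all 33 the adjusted p of the limma fits ran from 0.000284 to 0.144. With array weights the differences from 0 Gy at 2 Gy (-2.73) and 10 Gy (-1.47) and that of 10 Gy from 2 Gy (1.26) passed, in a fit that called 70.0%, 43.8% and 53.7% of all miRNAs in these comparisons. The 2 Gy difference also passed with a covariate for the labelling spike-in (-1.21), and without both 0 Gy replicate 3 and 2 Gy replicate 2 it and the 10 Gy difference passed (-2.73 and -1.51). With 1 array left out the 2 Gy difference ran from -2.19 to -1.22. The cause of these changes was not tested. With the replicate number as a block in all 16 arrays no call for miR-210-3p changed: 6 Gy against 0 Gy was -2.29 (adjusted p = 0.0198), 2 Gy against 0 Gy -1.53 (0.0589) and 10 Gy against 6 Gy 1.44 (0.196). In the 8 arrays of slide 2 the replicate block gave 1.44 (0.0319) for 10 against 6 Gy, from 1.26 to 1.71 with 1 pair left out. In the 8 arrays of slide 1 it gave -1.53 (0.124) for 2 Gy against 0 Gy. The alternatives run for 6 Gy against 2 Gy and for the slope changed no call and no direction, but the values moved, from -1.12 to -0.22 and from -0.10 to -0.033 with 1 array left out. With array weights they were nearly 0, at -0.012 (limma, adjusted p = 0.992) and -0.0019, so the order of 2 and 6 Gy is not firm. At 6 Gy, 55 miRNAs were called, against 183 with scaling over all human probes, 128 with quantile normalization, 86 from the total signal, 90 without a filter and 37 with normexp. At 2 Gy the 36 called became 125, 70, 29, 56 and 0 in the same order (limma, 68 at an unadjusted p under 0.05 with normexp). The level of 6 Gy replicate 4, the dimmest array, was at the floor and is an upper bound.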
